A study of Homo sapiens with 12 samples.

Results

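Hepcidin, the liver hormone encoded by HAMP, and the genes of the bone morphogenetic protein (BMP) and SMAD pathway that controls it were followed in human liver spheroids. The set was chosen by gene symbol and held 10 of the 16705 genes measured, namely HAMP, the BMP-SMAD target genes ID1, ID2, ID3, SMAD6, SMAD7 and SMAD9, the ligand gene BMP6, and the iron regulators TMPRSS6 and TFR2. These genes were picked with their response to parenteral nutrition already known, so their values under that exposure are given as a description with no test. Spheroids of C3A cells, a clone of the HepG2 hepatoma line, and LX-2 cells, a line of activated hepatic stellate cells, were left untreated for 24 h or 144 h, or exposed for 24 h or 144 h to 1% total parenteral nutrition (TPN). TPN was a clinical mixture of amino acids with electrolytes, glucose, a lipid emulsion, trace elements and vitamins. Each of the 4 groups had 3 RNA-seq libraries, each from pooled spheroids, and the study describes the replicates as independent experiments. Both cell types are established lines, and no other liver cell type was added, which limits the spheroids as a model of liver tissue.

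Hepcidin is secreted by hepatocytes and lowers iron in blood by binding the iron exporter ferroportin, which is then degraded. In liver, BMP6 comes mainly from sinusoidal endothelial cells and activates BMP receptors on hepatocytes, helped by the co-receptor hemojuvelin. The receptors phosphorylate SMAD1, SMAD5 and SMAD9, which enter the nucleus with SMAD4 and bind BMP response elements in HAMP, in the ID genes and in the genes of the inhibitory SMADs. TMPRSS6 encodes matriptase-2, a protease that cleaves hemojuvelin, and TFR2 encodes transferrin receptor 2, a sensor of iron-loaded transferrin on hepatocytes. Inflammation raises hepcidin through interleukin 6 and STAT3, which binds a separate element of the HAMP promoter.

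HAMP (gene 57817) lies on chromosome 19 from 35282528 to 35285143 in the GRCh38 assembly used for the files. The 250 bases before its start are shown because they hold letters of both kinds of element, and those of ID3 because it was the other gene of the set with the STAT-type letters. Windows of RefSeq (GRCh38.p14) were matched by symbol for 8 of the 10 genes, and TFR2 and TMPRSS6 had none. Capitals mark matches to GGCGCC, the core of BMP response elements, and to TTCNNNGAA, the STAT-type element, searched on both strands. The HAMP window is chr19:35282278-35282527 on the plus strand and the ID3 window is chr1:23559502-23559751 on the minus strand.
HAMP: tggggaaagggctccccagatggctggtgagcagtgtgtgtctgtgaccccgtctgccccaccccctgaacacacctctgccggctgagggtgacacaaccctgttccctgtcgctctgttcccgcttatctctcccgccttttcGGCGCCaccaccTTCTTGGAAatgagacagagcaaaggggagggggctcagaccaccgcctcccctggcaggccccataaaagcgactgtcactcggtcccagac
ID3: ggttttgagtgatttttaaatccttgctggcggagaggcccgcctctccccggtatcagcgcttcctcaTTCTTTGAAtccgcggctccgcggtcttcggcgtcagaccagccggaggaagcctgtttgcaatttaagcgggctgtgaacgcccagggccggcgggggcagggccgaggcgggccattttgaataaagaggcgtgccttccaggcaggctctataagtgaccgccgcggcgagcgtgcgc
In HAMP, GGCGCC lay 105 to 100 bases before the start and TTCTTGGAA lay 93 to 85 bases before it, with no overlap between them. In ID3, TTCTTTGAA lay 181 to 173 bases before the start. GGCGCC occurred in 1 of the 8 genes with a window (HAMP), against 31.4% of the 9494 tested genes with a window and 16.4% of all 35116 windows. TTCNNNGAA occurred in 2 of the 8, against 7.48% of tested genes and 6.57% of windows. The SMAD-type letters CAGAC were found in HAMP, ID3 and SMAD7, and in 44% of tested genes. An E-box (CANNTG), the letters bound by the helix-loop-helix factors that ID proteins inhibit, was found in HAMP, ID2, SMAD7 and SMAD9, and in 60.8% of tested genes. These are matches of letters and not measured binding sites.

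Expression was measured as FPKM, in which the fragments of a gene are divided by its transcript length and by the size of the library, so levels are per length and can be set side by side between genes. The FPKM of single libraries added up to 561657 to 583722, and 10936 to 11074 genes reached 1 FPKM. From the steps between low values in 21 short genes the depth was estimated at 1.81e+07 fragments per library (90.3% of 154 nonzero values within 0.15 of a whole number of fragments). The steps were related to transcript length less an offset of 271 bases, which was fitted to these genes, so that length enters as an effective length. At that depth and offset 1 fragment was worth 0.407 FPKM of HAMP, whose transcript has 406 bases and whose estimate therefore rests heavily on the offset, and 0.0157 FPKM of BMP6. By this estimate the HAMP values rest on about 70.8 fragments in the lowest library and 1.03e+03 in the highest, and the BMP6 values on 16.6 and 250 fragments. All 10 genes were among the 11713 with a mean of at least 0.5 FPKM over the 12 libraries, which were tested as log2(FPKM + 0.1) in a limma model. BMP6 passed this filter through its 144 h values, as both of its 24 h means were below it. A gene was called when its Benjamini-Hochberg adjusted p value was below 0.05 and its log2 fold change exceeded 0.58 in size, the thresholds of the study.

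HAMP had lower expression in every TPN library than in any untreated library, at both times. After 24 h, the untreated libraries had 147.13, 130.33 and 151.92 FPKM of HAMP and the TPN libraries 28.86, 37.84 and 30.54 FPKM. After 144 h, the untreated libraries had 415.62, 389.32 and 418.82 FPKM and the TPN libraries 60.14, 75.17 and 73.46 FPKM. The ranges did not overlap at either time, and even the TPN libraries at 144 h stayed below the untreated libraries at 24 h. The means were 143 ± 11.3 and 32.4 ± 4.77 FPKM at 24 h (SD, n = 3), a ratio of 0.226 and a log2 fold change of -2.15 (SE 0.098). At 144 h they were 408 ± 16.2 and 69.6 ± 8.23 FPKM, a ratio of 0.171 and a log2 fold change of -2.56 (SE 0.098). HAMP thus had the lowest ratio of the 10 genes at both times.

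The ID genes encode inhibitors of helix-loop-helix transcription factors and are early targets of BMP signalling in many cell types. ID1 (gene 3397, chromosome 20, 31605289 to 31620851) had 412.04, 401.11 and 452.97 FPKM in untreated and 218.98, 242.22 and 225.29 FPKM in TPN libraries at 24 h. At 144 h it had 478.86, 488.94 and 507.49 FPKM in untreated and 331.94, 325.65 and 344.18 FPKM in TPN libraries. All TPN libraries were below all untreated libraries, and TPN at 24 h was the lowest group. The ratio of the ID1 means was 0.542 at 24 h (log2 fold change -0.88, SE 0.046) and 0.679 at 144 h (log2 fold change -0.56, SE 0.046), the latter just short of the threshold of 0.58.

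ID2 (gene 3398, chromosome 2, 8682056 to 8684461) had 156.13, 141.19 and 146.46 FPKM untreated and 87.24, 84.22 and 89.51 FPKM with TPN at 24 h. Its values at 144 h were 182.68, 177.95 and 184.35 FPKM untreated and 115.95, 114.04 and 116.16 FPKM with TPN. Its groups stood in the same order as those of HAMP and ID1, with untreated at 144 h highest, then untreated at 24 h, TPN at 144 h and TPN at 24 h. The ID2 means had ratios of 0.588 and 0.635, with log2 fold changes of -0.76 and -0.65 (SE 0.036 each).

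ID3 (gene 3399, chromosome 1) had 231.97, 236.79 and 247.55 FPKM untreated and 128.15, 144.30 and 131.77 FPKM with TPN at 24 h. At 144 h the values were 196.61, 185.99 and 200.18 FPKM untreated and 93.80, 93.44 and 95.02 FPKM with TPN. ID3 differed from ID1 and ID2 in that both of its 144 h groups were below the corresponding 24 h groups, and its lowest group was TPN at 144 h. The ratios of its means were 0.564 and 0.484, with log2 fold changes of -0.83 and -1.04 (SE 0.042 each).

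**Figure D1:**
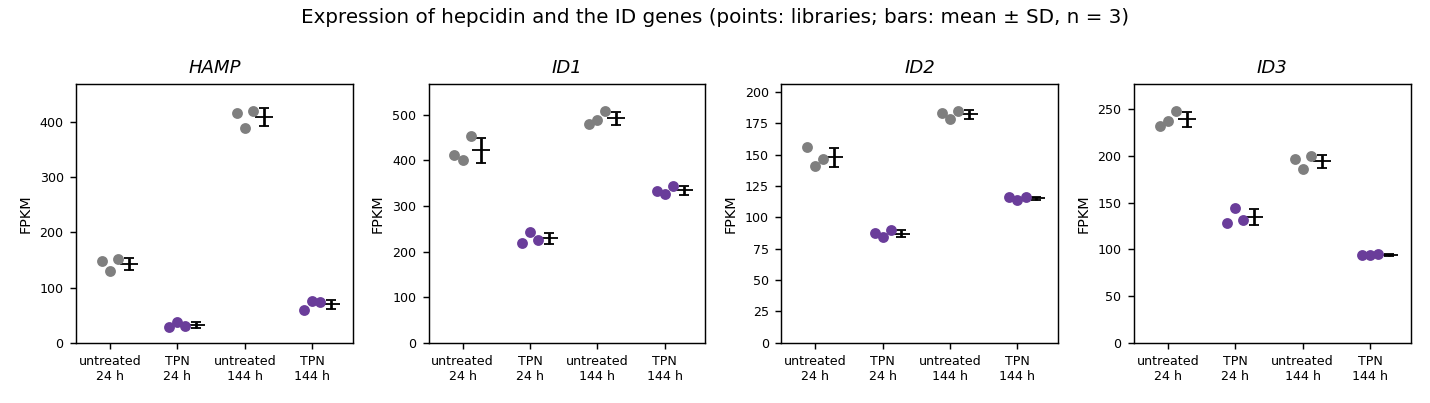
FPKM (linear axes from 0) of HAMP, ID1, ID2 and ID3 in the 12 libraries, by group; points are libraries and bars are the mean ± SD of 3 libraries. The TPN points lie below all untreated points of the same time in each of the 4 panels, and the ratio of the means was lowest in HAMP, with 143 against 32.4 FPKM at 24 h and 408 against 69.6 FPKM at 144 h.

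SMAD6 and SMAD7 encode inhibitory SMADs that are induced by the pathway and dampen it. SMAD7 (gene 4092, chromosome 18, 48919853 to 48950965) had 15.42, 17.47 and 16.83 FPKM untreated and 10.02, 9.77 and 11.14 FPKM with TPN at 24 h. At 144 h it had 15.46, 15.95 and 15.78 FPKM untreated and 8.33, 8.64 and 9.34 FPKM with TPN. The untreated values of both times overlapped, and all TPN values were below them. The log2 fold changes of SMAD7 were -0.68 at 24 h and -0.84 at 144 h (SE 0.061 each). SMAD6 (gene 4091, chromosome 15, 66702110 to 66782860) was expressed at a lower level, with 3.27, 3.65 and 3.55 FPKM untreated and 2.49, 2.41 and 2.16 FPKM with TPN at 24 h. At 144 h its values were 2.36, 2.32 and 2.26 FPKM untreated and 1.80, 1.86 and 1.86 FPKM with TPN. The TPN libraries were again below the untreated ones at both times, but TPN at 24 h overlapped untreated at 144 h. The log2 fold changes of SMAD6 were -0.55 and -0.31 (SE 0.078 each), below the fold threshold at both times, and at 24 h it passed that threshold without untreated replicate 1 or without TPN replicate 1.

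SMAD9 (gene 4093, chromosome 13, 36843533 to 36920765) encodes the receptor-regulated SMAD also known as SMAD8 and is itself a BMP target. It had 2.47, 2.77 and 2.84 FPKM untreated and 1.97, 2.23 and 1.98 FPKM with TPN at 24 h. At 144 h the values were 4.20, 4.62 and 4.14 FPKM untreated and 2.52, 2.59 and 2.49 FPKM with TPN. Untreated spheroids at 144 h stood above all other groups, while TPN at 144 h overlapped untreated at 24 h. Its log2 fold changes were -0.37 at 24 h and -0.75 at 144 h (SE 0.080 each).

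BMP6 (gene 654, chromosome 6, 7726099 to 7881728) was the gene of the set with higher expression in TPN libraries. At 24 h it had 0.28, 0.32 and 0.26 FPKM untreated and 0.54, 0.50 and 0.37 FPKM with TPN. At 144 h it had 1.41, 1.26 and 1.34 FPKM untreated and 3.57, 3.92 and 3.87 FPKM with TPN. The groups were apart at both times and stood in the order TPN at 144 h, untreated at 144 h, TPN at 24 h and untreated at 24 h. The ratio of the means was 1.64 at 24 h, with a log2 fold change of 0.55 (SE 0.14), and 2.83 at 144 h, with a log2 fold change of 1.44 (SE 0.14). The 24 h value rests on few fragments and moved between 0.19 and 0.68 with the settings tried. It passed the fold threshold with a pseudocount of 0.01, without untreated replicate 2 and without TPN replicate 3. The level of BMP6 was the lowest of the set in 3 of the 4 groups. BMP6 is a ligand that activates the pathway. The target genes of this set, which were picked with their response known, were lower in the same libraries.

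TMPRSS6 (gene 164656, chromosome 22, 37065436 to 37111458) had 5.52, 5.75 and 6.10 FPKM untreated and 4.61, 5.34 and 5.32 FPKM with TPN at 24 h. At 144 h it had 5.11, 5.01 and 5.27 FPKM untreated and 3.72, 3.85 and 4.03 FPKM with TPN. The groups of 1 time did not overlap, but the gap at 24 h was 0.18 on the log2 scale of FPKM + 0.1 and that at 144 h was 0.40 (SE 0.068 each), both lower with TPN. TFR2 (gene 7036, chromosome 7, 100620420 to 100641552) had 12.25, 14.11 and 13.32 FPKM untreated and 12.19, 12.12 and 12.11 FPKM with TPN at 24 h. At 144 h its values were 24.10, 24.25 and 25.11 FPKM untreated and 20.18, 19.12 and 19.39 FPKM with TPN. At 24 h the highest TPN library was just under the lowest untreated library, and the log2 fold change was -0.12, against -0.32 at 144 h (SE 0.047 each). Both iron regulators thus had smaller log2 fold changes than HAMP, the ID genes and SMAD7 in both comparisons.

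**Figure D2:**
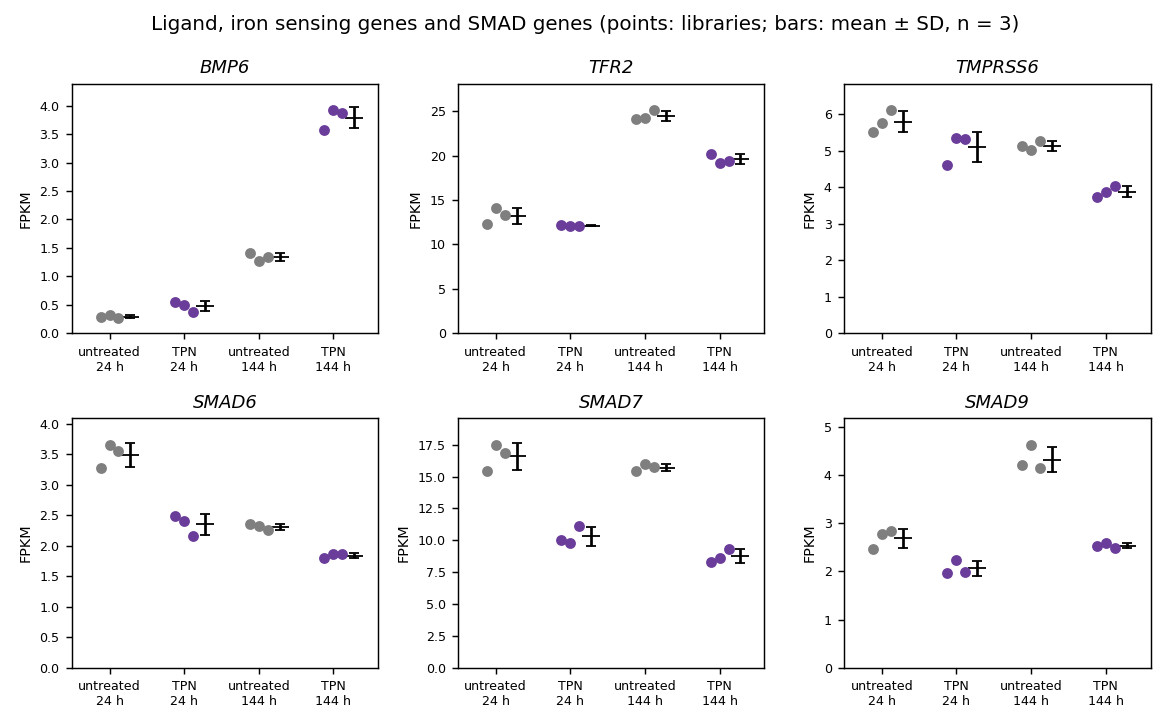
FPKM (linear axes from 0) of BMP6, TFR2, TMPRSS6, SMAD6, SMAD7 and SMAD9 in the 12 libraries, by group; points are libraries and bars are the mean ± SD of 3 libraries. BMP6 is the panel in which the TPN points are above the untreated points of the same time, with means of 3.79 against 1.34 FPKM at 144 h.

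Of the 10 genes, 5 met the thresholds as lower with TPN at 24 h (HAMP, ID1, ID2, ID3 and SMAD7) and 0 as higher. Among all 11713 genes tested by limma, 0.914% were called at 24 h, 0.273% as lower and 0.64% as higher. At 144 h 5 were lower (HAMP, ID2, ID3, SMAD7 and SMAD9) and 1, BMP6, was higher, against 9.48% of all genes called, 3.73% as lower and 5.75% as higher. HAMP, ID2, ID3 and SMAD7 met them as lower at both times, as did 0.154% of all genes. At each time 9 of the 10 genes were lower and BMP6 was higher in TPN libraries with no overlap between the groups. Groups did not overlap in 29.9% of all genes at 24 h, 15.9% as lower and 13.9% as higher, and in 57.3% at 144 h, 30.2% as lower and 27.2% as higher. The median log2 fold change of the set was -0.62 at 24 h and -0.61 at 144 h, beside -0.0045 and -0.018 over all genes. Nothing is read from these counts, since the genes were chosen for them. Whether the TPN responses of these genes differed between 24 h and 144 h was not tested.

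The genes were chosen for their response to TPN and not for a change with culture time, which was tested. That comparison used the same untreated libraries as the TPN comparisons, so it is not independent of the choice of genes. All genes together had a median log2 fold change of -0.18 between untreated spheroids at 144 h and at 24 h, and 19% were called, 6.8% as higher and 12.2% as lower (796 and 1434 genes). With median ratio scaling that median was -0.0078 and the split became 1230 higher and 639 lower, so time changes are read against these medians. HAMP rose with culture time, from 143 ± 11.3 to 408 ± 16.2 FPKM (log2 fold change 1.51, SE 0.098, limma adjusted p = 1.03e-08). TFR2 rose from 13.2 ± 0.934 to 24.5 ± 0.545 FPKM (log2 fold change 0.89, SE 0.047, with limma adjusted p = 1.63e-09) and SMAD9 from 2.69 ± 0.197 to 4.32 ± 0.262 FPKM (0.66, limma adjusted p = 5.04e-06). BMP6 had 0.287 ± 0.0306 FPKM at 24 h and 1.34 ± 0.0751 FPKM at 144 h, a ratio of 4.66, which is given without a test because the gene passed the filter only through its 144 h values. Of the other 9 genes, 3 (HAMP, TFR2 and SMAD9) were called as higher and 0 as lower, and the call of SMAD9 was lost with a pseudocount of 1. In 5 of these 9 genes the 144 h libraries were all higher than the 24 h libraries, beside 21.2% of all genes, and in 3 all lower, beside 53.7% (74.9% in either direction). By adjusted p alone 5 of the 9 were higher and 3 lower with time, against 20.1% and 52.4% of all genes, and 72.6% in either direction.

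The other ID genes and SMADs changed less with time. ID1 rose by a log2 fold change of 0.22 (limma adjusted p = 6.77e-04) and ID2 by 0.30 (limma adjusted p = 4.51e-06), both short of the fold threshold. With median ratio scaling these values were 0.40 and 0.48. ID3 fell (limma log2 fold change -0.30, adjusted p = 2.26e-05), and so did SMAD6 (-0.57, limma adjusted p = 1.51e-05), which reached the fold threshold with a pseudocount of 0.01, without untreated 24 h replicate 1 and without untreated 144 h replicate 1. With median ratio scaling the values of ID3 and SMAD6 were -0.12 (limma adjusted p = 0.0234) and -0.40 (limma adjusted p = 4.69e-04). SMAD7 had means of 16.6 ± 1.05 and 15.7 ± 0.249 FPKM (limma log2 fold change -0.07, adjusted p = 0.294), and its sign turned with another scaling. TMPRSS6 had a log2 fold change of -0.17 (limma adjusted p = 0.0358), which was 0.00 with median ratio scaling (limma adjusted p = 0.958). The set thus split with culture time in untreated spheroids, with HAMP, ID1, ID2, SMAD9 and TFR2 higher at 144 h and ID3 and SMAD6 lower by limma adjusted p under each of the 3 scalings.

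**Figure D3:**
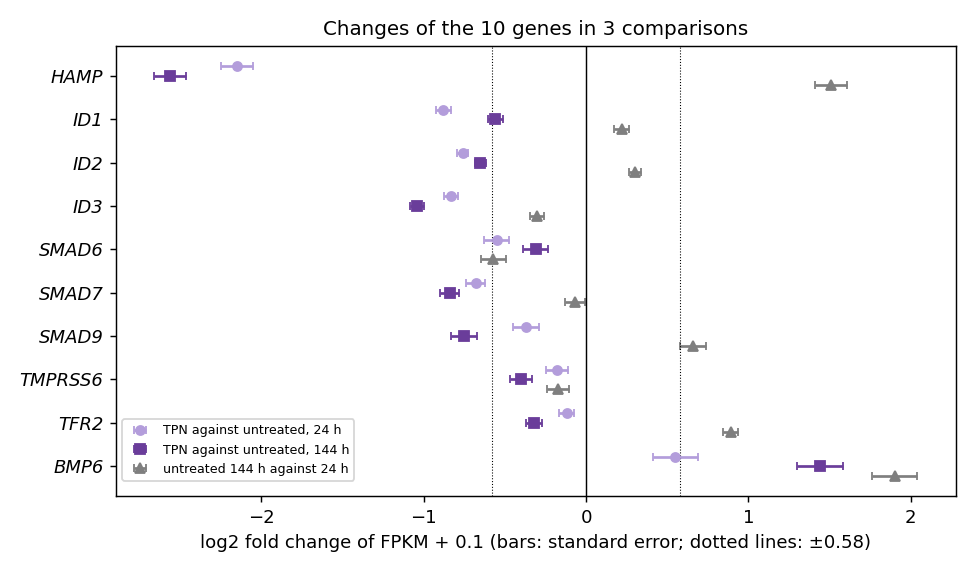
Log2 fold changes of FPKM + 0.1 for the 10 genes (rows) in 3 comparisons, TPN against untreated at 24 h (circles), at 144 h (squares) and untreated 144 h against 24 h (triangles); bars are standard errors from limma and dotted lines mark ±0.58. HAMP lies farthest left with TPN (-2.15 and -2.56) and to the right with time (1.51). BMP6 lies to the right in all 3 comparisons. Its change with time is a description only, because BMP6 passed the filter only through its 144 h values.

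The pattern of HAMP over the 12 libraries was most like that of ID2 among the other 11712 genes tested (Pearson r = 0.980 of log2 values). It was followed by CHKA, a choline kinase (r = 0.978), TTR, the carrier transthyretin (r = 0.972), IL13RA1, a chain of the interleukin 13 receptor (r = 0.971), and GRB7, an adaptor protein (r = 0.968). SMAD9 ranked 11 (r = 0.95) and ID1 ranked 9 (r = 0.96). Less alike were SMAD7 (r = 0.75), TFR2 (0.70), ID3 (0.61), TMPRSS6 (0.31), SMAD6 (0.23) and BMP6 (0.09). The 5 genes most like ID1 were BMF, a BCL2 family gene that promotes cell death (r = 0.981), ID2 (r = 0.978), the activin and BMP antagonist FSTL3 (r = 0.973), the phosphatase CTDSP2 (r = 0.968) and IL13RA1 (r = 0.961). The 12 points fall into 4 groups and share the same libraries, so these values describe the order of 4 group means and carry no test. The genes of the set were also picked with their TPN response in these libraries known, so their ranks are not independent of that choice.

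Other genes of the pathway were examined from lists of ligands, receptors, transducers, inhibitors, further targets and other regulators of HAMP, 72 genes outside the set of which 67 were in the table and 45 were tested. The lists were chosen with earlier results of these data known, so their counts and p values are not independent of that choice. At 24 h 3 of the 45 were called as lower with TPN (FSTL3, SKIL and FURIN) and 0 as higher, beside 0.914% of all genes called. At 144 h 6 were higher and 6 lower, beside 9.48% of all genes. By adjusted p alone, 5 were higher, 11 lower and 29 did not pass at 24 h, where 5.04% of all genes were higher and 5.46% lower (10.5% together). At 144 h 20 were higher, 10 lower and 15 did not pass, where 24.2% of all genes were higher and 28.3% lower (52.5% together). The TPN effect at 144 h differed from that at 24 h, by a limma test of the difference with the same thresholds, in 12 of the 45 genes, 9 with a more positive and 3 with a more negative log2 fold change at 144 h. Among all genes 5.87% were called in that test, 4.2% as more positive and 1.66% as more negative.

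Ligands other than BMP6 had 2 of 6 genes tested, and 0 were called with TPN. BMP4, named here after its values were seen because it was the most abundant ligand, had 132 ± 2.65 FPKM untreated and 131 ± 0.921 FPKM with TPN at 24 h. Its means at 144 h were 95.5 ± 1.19 and 107 ± 2.64 FPKM (limma log2 fold change 0.17, adjusted p = 1.24e-04), and at both times it was far above BMP6. BMP2 was listed at 0 in 9 of the 12 libraries and at up to 0.02 FPKM in the others.

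Among receptors and co-receptors, 9 of 12 genes were tested, and 0 were called at 24 h and 1 at 144 h. BMPR1A, the type I receptor also called ALK3, had 10.6 ± 0.656 and 10.3 ± 0.274 FPKM at 24 h (limma adjusted p = 0.714) and fell from 9.42 ± 0.548 to 7.81 ± 0.412 FPKM at 144 h (limma log2 fold change -0.27, adjusted p = 0.00182). ACVR1, the type I receptor ALK2, did not pass at 24 h (limma log2 fold change -0.04, adjusted p = 0.826) and was higher by 0.20 at 144 h (limma adjusted p = 0.0315). The type II receptor gene BMPR2 did not pass at either time (log2 fold changes -0.17 and 0.12, limma adjusted p = 0.195 and 0.197). ENG, the co-receptor endoglin, rose from 2.11 ± 0.235 to 3.52 ± 0.21 FPKM at 144 h (limma adjusted p = 1.45e-05). HFE, the hemochromatosis protein, was higher at 24 h (limma log2 fold change 0.37, adjusted p = 0.0266) and had 2.2 FPKM in both groups at 144 h. HJV, the gene of hemojuvelin, was below the filter, at 0 to 0.1 FPKM.

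The transducers that carry the signal to HAMP, SMAD1, SMAD5 and SMAD4, did not pass the test with TPN at either time. SMAD1 had 8.22 ± 0.481 and 8.28 ± 0.787 FPKM at 24 h and 5.95 ± 0.159 and 5.95 ± 0.22 FPKM at 144 h (limma adjusted p = 0.967 and 0.996), and the 95% intervals of its log2 fold change ran from -0.14 to 0.15 and from -0.15 to 0.15. SMAD5 had log2 fold changes of -0.01 and 0.13 (limma adjusted p = 0.91 and 0.0591), and SMAD4 of -0.05 and 0.03 (limma adjusted p = 0.564 and 0.577). Of the 5 transducers 0 were called in a TPN comparison. By adjusted p alone 0 passed at 24 h and 1 at 144 h, beside 10.5% and 52.5% of all genes. That gene was SMAD3, which was higher with TPN (limma log2 fold change 0.35, adjusted p = 4.03e-05). The mRNA levels give no measure of phosphorylated SMAD protein.

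Inhibitors of BMP or activin signalling moved in both directions. FSTL3, a follistatin-like binding protein, fell from 9.74 ± 0.584 to 4.81 ± 0.501 FPKM at 24 h (limma log2 fold change -1.01, adjusted p = 1.92e-06) and from 11.6 ± 0.403 to 6.68 ± 0.584 FPKM at 144 h (-0.79, limma adjusted p = 1.95e-06). FST, the gene of follistatin, fell at 144 h from 29.6 ± 0.958 to 16.8 ± 0.782 FPKM (limma adjusted p = 2.06e-06). GREM1, the BMP antagonist gremlin, fell from 0.57 ± 0.105 to 0.193 ± 0.0666 FPKM (limma adjusted p = 5.62e-05), and NBL1, a related antagonist, rose from 12.9 ± 1.6 to 20.6 ± 0.899 FPKM at 144 h (limma adjusted p = 3.45e-06). Among 9 inhibitors tested, 1 was called at 24 h and 4 at 144 h, beside 0.914% and 9.48% of all genes. The 4 named were the called ones. By limma adjusted p alone 0 were higher and 1 lower with TPN at 24 h. At 144 h 5 were higher and 3 lower by that measure, beside 24.2% and 28.3% of all genes.

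Of 4 tested genes that respond mainly to TGF-beta through SMAD2 and SMAD3, SKIL, which encodes a repressor of SMAD signalling, fell at 24 h from 4.38 ± 0.0755 to 2.88 ± 0.085 FPKM (limma log2 fold change -0.59, adjusted p = 7.50e-05). TGFBI, an extracellular matrix protein, fell at 144 h from 336 ± 5.07 to 169 ± 3.23 FPKM (limma log2 fold change -0.99, adjusted p = 1.02e-11). Other BMP-SMAD targets had 2 of 5 genes tested, MSX1 and BAMBI, and 0 were called. MSX1 was higher with TPN at both times (log2 fold changes 0.18 and 0.17, limma adjusted p = 0.0494 and 0.0188). BAMBI was lower at 24 h (-0.29, limma adjusted p = 2.08e-04) and did not pass at 144 h (-0.06, limma adjusted p = 0.172).

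The interleukin 6 and STAT3 branch, which induces HAMP through the STAT-type element, had 10 of 13 genes tested. At 24 h 5 of them were lower and 1 higher without the fold threshold, beside 5.46% and 5.04% of all genes. At that time 0 were called. At 144 h 8 were higher and 0 lower, beside 24.2% and 28.3% of all genes. Of these 8, 3 were called, beside 5.75% of all genes called as higher. The acute phase genes SAA1, SAA2 and LBP were below the filter, with means of 0.0717, 0.256 and 0.08 FPKM over the 12 libraries. CRP was not among the genes measured. STAT3 itself had a log2 fold change of -0.06 at 24 h (limma adjusted p = 0.362) and of 0.37 at 144 h (limma adjusted p = 1.09e-06). SOCS3, a feedback inhibitor induced by STAT3, rose at 144 h from 2.43 ± 0.436 to 5.03 ± 0.537 FPKM (limma adjusted p = 9.05e-05). The acute phase genes HP, for haptoglobin, and SERPINA3, for an antichymotrypsin, rose at 144 h from 14.4 ± 1.31 to 30.5 ± 2.22 FPKM (limma adjusted p = 2.54e-08) and from 741 ± 40 to 1519 ± 64.2 FPKM (limma adjusted p = 2.13e-10). These genes were higher at 144 h in the libraries in which HAMP was lower.

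Of 4 other regulators tested, FURIN, a protease that processes prohepcidin, fell at both times, from 32.2 ± 1.75 to 20.7 ± 0.918 FPKM at 24 h (limma log2 fold change -0.64, adjusted p = 2.03e-06) and from 18.2 ± 0.355 to 11 ± 0.576 FPKM at 144 h (-0.72, limma adjusted p = 6.55e-08). CEBPA, a hepatocyte transcription factor that binds the HAMP promoter, fell at 144 h from 46.1 ± 1.18 to 27.1 ± 2.15 FPKM (limma log2 fold change -0.77, adjusted p = 3.73e-08). CREB3L3, the factor CREBH, which activates HAMP during stress of the endoplasmic reticulum, rose at 144 h from 15.9 ± 0.603 to 32.2 ± 2.45 FPKM (limma adjusted p = 3.73e-08).

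**Figure D4:**
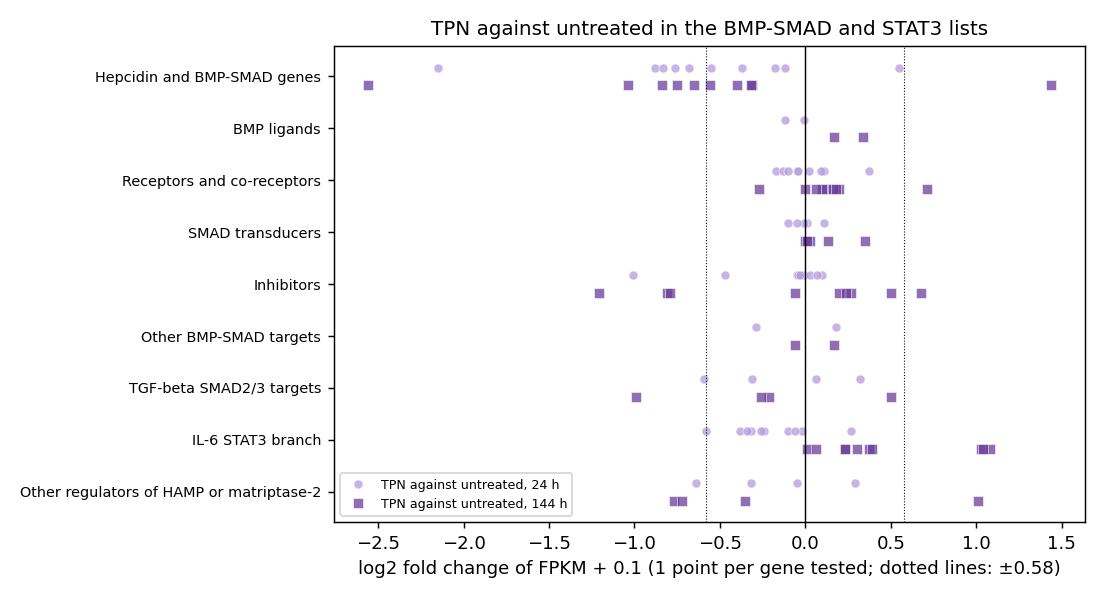
Log2 fold changes of FPKM + 0.1 with TPN at 24 h (circles) and 144 h (squares) for the 10 genes and for the tested genes of 8 pathway lists, 1 point per gene; dotted lines mark ±0.58. The 10 genes were selected for their change, and the lists were chosen with earlier results of these data known. The 5 SMAD transducers lie within the dotted lines. In the IL-6 STAT3 branch 8 of 10 genes were higher at 144 h by adjusted p, beside 24.2% of all genes.

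Markers of the cell types were compared in the same libraries, since in bulk RNA fewer cells of a type and less RNA per cell cannot be told apart. All 8 hepatocyte markers were tested, and their summed level was 11885 to 12248 FPKM untreated and 10962 to 10998 FPKM with TPN at 24 h, and 13235 to 14211 and 10305 to 11045 FPKM at 144 h. Of these 8 markers 4 were lower with TPN at 24 h and 7 at 144 h by limma adjusted p, beside 5.46% and 28.3% of all genes, and 0 were higher. The summed level of the stellate cell markers, of which 8 of 10 were tested and DES and LUM stayed below 0.1 FPKM in every library, was 97 to 103 and 83.8 to 87.8 FPKM at 24 h and 54.3 to 59.7 and 49 to 51.5 FPKM at 144 h. ACTA2 made up most of this sum, with 47.9 ± 2.6 FPKM untreated and 45.4 ± 1.57 FPKM with TPN at 144 h, while COL1A1 had 15.1 ± 1.11 FPKM untreated at 24 h, and 1.92 ± 0.401 FPKM untreated and 0.747 ± 0.155 FPKM with TPN at 144 h. At 144 h 5 of the 8 were lower with TPN, beside 28.3% of all genes, and 7 were lower with culture time, beside 52.4%. Of those 7, COL1A2, TAGLN and THY1 had means below 0.5 FPKM in both 144 h groups. They passed the filter only through their 24 h values, so the count with time is not read as a result. Endothelial markers, relevant to BMP6, were near 0, with 0 of 6 tested and STAB2 below 0.1 FPKM throughout. Their summed level was 0.25 to 0.4 FPKM untreated and 0.25 to 0.42 FPKM with TPN at 24 h, and 0.45 to 0.6 and 0.63 to 1.07 FPKM at 144 h. This sum was thus highest in the TPN libraries at 144 h, as was BMP6, but its genes did not move together. In the untreated and TPN groups at 144 h LYVE1 had means of 0.0833 ± 0.0416 and 0.393 ± 0.127 FPKM. CDH5 went the other way, with 0.22 ± 0.04 and 0.0767 ± 0.0115 FPKM. VWF had 0.163 ± 0.0306 and 0.187 ± 0.0404 FPKM, and PECAM1 0.07 ± 0.0436 and 0.153 ± 0.0709 FPKM. The part of these shifts in the values of HAMP, the ID genes and BMP6 was not tested.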

How the data were processed

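RNA was sequenced by BGI on the DNBSEQ platform in 12 libraries, 3 in each of 4 groups. The authors filtered reads with SOAPnuke, aligned them to GRCh38.p13 with HISAT2 2.0.4 and to transcripts with Bowtie2 2.2.5 (versions from the submitters' processing notes), and deposited FPKM values from RSEM, rounded to 2 decimals. The values are scaled by transcript length and by mapped fragments, so they show composition and not absolute amounts. The study's DESeq2 test needs counts and was not run here. Dropped from the table were 20 lines without numeric values.

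Genes with a mean of at least 0.5 FPKM were tested as log2(FPKM + 0.1) in limma 3.58.1 (R 4.3.3), with 1 model of 4 groups, eBayes with an intensity trend and Benjamini-Hochberg adjustment over 11713 genes. The fold change of a low gene is understated on this scale. Python 3.11.15 with pandas 2.3.3 and matplotlib 3.10.9 served for summaries and figures, and the procedure was tested on simulated data. Transcript lengths came from GENCODE v44, which need not be the authors' annotation. The members and all gene lists were chosen with earlier results of these data known. Named besides the 10 genes were listed genes called with TPN or in the difference of its effects, at most 4 per list (more where a difference between times is given), the receptors, co-receptors and transducers of the signal chain, and the 5 genes most like HAMP and ID1. BMP4, SMAD3, MSX1 and BAMBI were named outside this rule. So were the untested genes ID4, ATOH8, MSX2, ERFE, SAA1, SAA2, LBP and CRP. Alternatives changed the pseudocount, filter, scaling, model and libraries. Cell type markers covered hepatocytes, stellate cells, endothelial cells, macrophages and cholangiocytes.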

Additional observations from a re-analysis of the deposited data

Results flagged for a closer look

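For 12 pathway genes outside the hepcidin set, the limma test of the difference between the TPN effect at 144 h and that at 24 h passed both thresholds, beside 5.87% of all genes tested. The lists that held these genes were chosen with earlier results of these data known. The effects at 24 h and 144 h come from separate libraries. Each value is the TPN effect on the log2 scale after 144 h less the effect after 24 h, with the limma adjusted p. In the STAT3 branch they were 1.43 for HP (adjusted p = 5.00e-07), 1.30 for SERPINA3 (9.78e-09), 1.27 for SOCS3 (7.86e-04) and, for the 3 fibrinogen chains, 0.61 for FGA (3.62e-06), 0.63 for FGB (3.38e-06) and 0.72 for FGG (1.43e-06). The fibrinogen genes were lower with TPN at 24 h (log2 fold changes -0.38, -0.58 and -0.32), and at 144 h FGA and FGG were higher (0.23 and 0.39) while FGB had 0.06 (limma adjusted p = 0.223). The call of FGA was lost without untreated 144 h replicate 2, where its difference was 0.56.

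CREB3L3 had a difference of 0.73 (limma adjusted p = 8.96e-05) and ENG of 0.81 (3.15e-04). Among the inhibitors, NBL1 had 0.64 (limma adjusted p = 3.78e-04), FST -0.77 (2.66e-04) and GREM1 -0.74 (0.035). TGFBI had -0.68 (limma adjusted p = 1.27e-07), with log2 fold changes of -0.31 at 24 h and -0.99 at 144 h. The call of GREM1 was lost in 11 of 19 alternatives, with values from -1.07 to -0.06 and an adjusted p of up to 0.715. The calls of the other 10 genes (all but GREM1 and FGA) were kept in the alternatives run.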

How the results depend on the processing

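Of 618 values of the 10 genes under alternative settings, 605 kept their direction and their side of the thresholds, 10 crossed a threshold and 3 turned in sign. The log2 fold change of SMAD7 with time became 0.10 with median ratio scaling and 0.06 with quantile normalization, and that of TMPRSS6 became 0.00 with median ratio scaling. BMP6 with time went from 1.90 to 0.86 with a pseudocount of 1. It passed the filter only through its 144 h values, so its call with time is not read as a result. Where it was tested, the calls of the set with time given here still include it. For ID1 at 144 h the threshold was passed without TPN replicate 3. SMAD6, SMAD9, BMP6 and TMPRSS6 were not tested with a filter of 5 FPKM, which left 2 of the set called with time, and 8 of the other pathway genes against 13. In all genes, TPN calls at 24 h went from 107 to 58 with a pseudocount of 1 and 59 with the filter of 5 FPKM, those at 144 h from 1110 to 698 and 523, and time calls from 2230 to 1337 with that filter, which tests fewer genes. Leaving out single libraries gave 102 to 119, 1068 to 1150 and 2193 to 2293 calls in all genes, 5 to 6, 6 to 7 and 4 to 5 in the set and 2 to 4, 12 and 11 to 13 in the other pathway genes.

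Replicate numbers were not used as pairs in the main model. Same-numbered deviations correlated at -0.08 to 0.10 at 24 h, -0.01 to 0.06 at 144 h and 0.02 to 0.15 between times. Those with different numbers correlated at -0.16 to 0.08, -0.07 to 0.05 and -0.16 to 0.07. With 3 replicates per group these values cannot settle whether the libraries were paired. With the replicate number as a block, 111, 1108 and 2230 genes, 5, 6 and 4 of the set and 3, 12 and 13 other pathway genes were called.

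FPKM without counts gives no exact depth, and estimates from single libraries ran from 1.83e+07 to 1.94e+07 fragments, all above the 1.81e+07 fitted over genes. BMP6 at 24 h rests on few fragments, and 3 libraries per group limit the precision. Time changes depend on the scaling, since the median of all genes moved with it. Levels of mRNA show neither hepcidin protein nor SMAD activity.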

Other observations

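Further BMP target genes had a mean over the 12 libraries below the filter of 0.5 FPKM and were not tested. ID4, another ID gene, had means of 0.54 ± 0.0458 FPKM untreated and 0.473 ± 0.117 FPKM with TPN at 24 h, and 0.447 ± 0.191 and 0.14 ± 0.0458 FPKM at 144 h. ATOH8, a helix-loop-helix factor known to act on HAMP, had 0.33 ± 0.0755 and 0.13 ± 0.052 FPKM at 24 h and 0.257 ± 0.0643 and 0.13 ± 0.0529 FPKM at 144 h. MSX2 went the other way at values near 0, with 0.0833 ± 0.0681 and 0.143 ± 0.0493 FPKM at 24 h and 0 and 0.02 ± 0.0173 FPKM at 144 h. ERFE, the gene of the hepcidin suppressor erythroferrone, ranged from 0 to 0.24 FPKM.

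The summed level of macrophage markers, of which CD68 and CD14 were tested, was 47.3 to 49 FPKM untreated and 51.8 to 56.2 FPKM with TPN at 24 h, and 49 to 49.5 and 63.2 to 66.2 FPKM at 144 h. CD68 made up nearly all of it, with 47.8 ± 0.483 FPKM untreated and 63.7 ± 1.47 FPKM with TPN at 144 h, where CD14 had 1.34 ± 0.264 and 1.25 ± 0.108 FPKM. MARCO, CSF1R and PTPRC, which mark macrophages or leukocytes, stayed below 0.1 FPKM in every library. Cholangiocyte markers summed to 334 to 352 and 320 to 327 FPKM at 24 h and to 301 to 313 and 271 to 280 FPKM at 144 h. At 144 h KRT19 had 98.5 ± 2.28 FPKM untreated and 68.7 ± 3.81 FPKM with TPN. EPCAM had 132 FPKM in both groups and SOX9 had 76.8 and 74.8 FPKM, so the lower sum with TPN at 144 h came mostly from KRT19. KRT7 stayed below 0.1 FPKM in every library.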
